A study of Mus musculus with 8 samples.

Results

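Axonemal dyneins are the motors of the sperm tail and of motile cilia. Each motor is built on heavy chains, which hydrolyse ATP and step along the microtubule doublets, and outer and inner arms carry different heavy chains. Intermediate and light chains complete the arm, docking proteins fix the outer arm to the doublet, and preassembly factors help to fold and join the arm in the cytoplasm before it is delivered to the axoneme. Described here are 36 mouse genes of this machinery of 56748 gene identifiers in the table: 5 outer-arm heavy chains, 9 inner-arm heavy chains, 7 intermediate and light chains, 4 docking genes, 10 preassembly factors and Ttc29, a tail protein placed in no class. They were chosen by name from knowledge of dynein biology, with earlier results of these data known. Each of the 36 matched 1 Ensembl identifier, and all 36 passed the filter on low counts.

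The RNA came from testes of adult mice, with 4 libraries carrying the label Ak9-/- (labelled knockouts 1 to 4) and 4 that of wild type (wild types 1 to 4). AK9 is an adenylate kinase, and the series concerns sperm motility and male fertility. The sources used here do not give the strain, an age beyond adult or the way the allele was made, and do not say that each library is a different mouse. The p-values therefore reflect only how much these libraries vary, and that variation may be technical. In bulk tissue, fewer cells of a type and less RNA per cell cannot be told apart.

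Total counts ran from 18062780 to 24415587 per library. A count of 0 allowed up to 0.123 to 0.166 counts per 1000000 (CPM), taking 3 counts as the limit and covering counting error only. Ak9 itself had 69.3, 116, 101 and 40.6 CPM in labelled knockouts 1 to 4, against 108, 115, 122 and 107 CPM in wild types 1 to 4, so its transcript did not follow the label in every library and the label is used here as a name. Crisp1, which the epididymis secretes, had 208 CPM in labelled knockout 3 and 22.0 CPM in labelled knockout 4, against at most 0.533 CPM in every other library, and Adam7, another epididymal gene, followed it with 531 counts in labelled knockout 3 and 72 in labelled knockout 4, against at most 4 elsewhere. Spint4 had 14 counts in labelled knockout 3 and at most 1 elsewhere. Defb48, Lcn8, Lcn9, Gpx5 and Cst11 had at most 7 counts in any library. Rnase10, the 1 of the 9 listed epididymal genes that passed the count filter, did not follow Crisp1. It had 101, 75, 63 and 126 counts in labelled knockouts 1 to 4, against 132, 117, 121 and 113 in wild types 1 to 4. Labelled knockout 3 was also low in spermatid markers, with list scores (mean log2 CPM minus the wild-type mean) of -0.76 for 9 round and -0.81 for 10 elongating spermatid genes, while labelled knockouts 1, 2 and 4 scored 0.26 to 0.38 on the round and 0.08 to 0.48 on the elongating list. Leydig cell markers scored -0.31, -0.54, -0.09 and -1.19 in labelled knockouts 1 to 4, and Sertoli cell markers -0.16, 0.06, 0.55 and -0.49.

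No axonemal dynein gene passed the test between labelled knockouts and wild types. Of the 36 members, 0 rose and 0 fell at the 0.05 threshold on adjusted p (edgeR's quasi-likelihood test, adjusted over all 21805 genes tested), where 0.0183% of all genes passed. At an unadjusted p under 0.05 stood 1 of the 36, Dnah5, against 3.04% of all genes. DESeq2 also called 0 members, where it called 0.211% of all genes, and had 1 member at an unadjusted p under 0.05. limma-voom with sample weights called 0 members and had 8 of 36 at an unadjusted p under 0.05, against 11.4% of all genes. The median log2 fold change, labelled knockout over wild type, was 0.07 over the members and 0.01 over all genes tested, and 30 of the 36 members were above 0 against 52.9% of all genes. Without the low-count genes Dnah5, Dnah11 and Dyx1c1, the other 33 members had log2 fold changes from -0.20 to 0.31, with 95% intervals that together reached from -0.55 to 0.75.

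**Figure D1:**
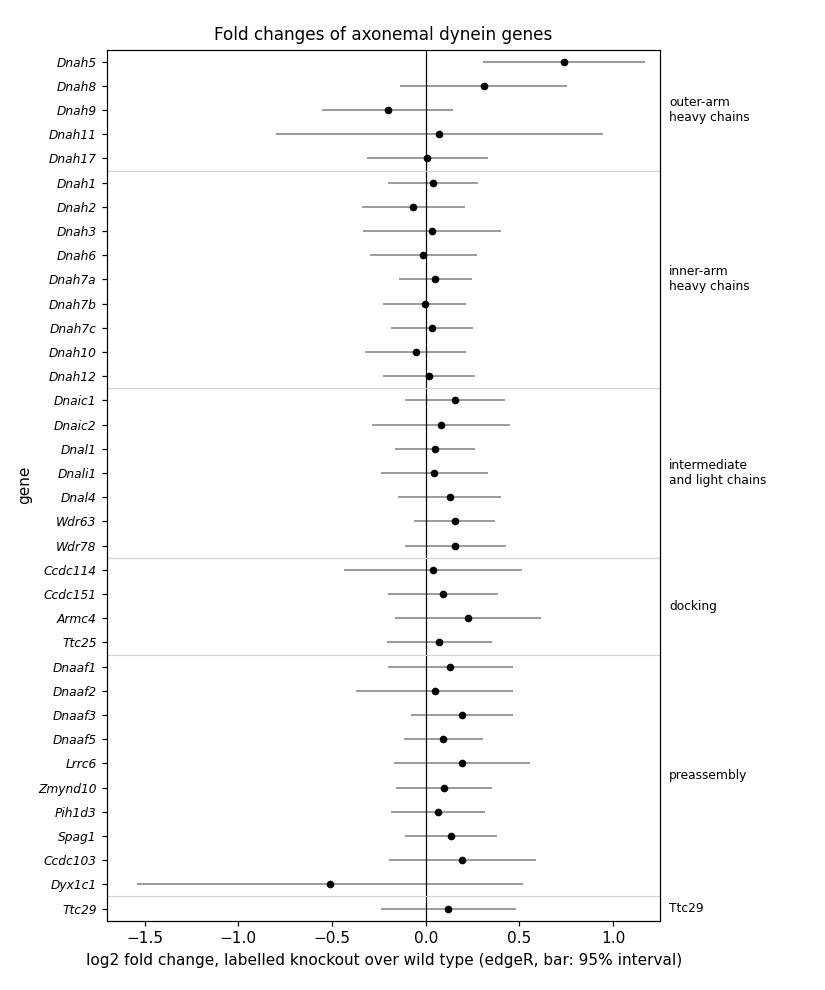
Log2 fold change (x axis) of each of the 36 genes, grouped by role, with points for the edgeR estimate and bars for its 95% interval, from 4 labelled knockout and 4 wild-type libraries. The interval of Dnah5, from 0.31 to 1.17, lies above 0 before adjustment over all genes, and the other intervals include 0.

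The medians of the classes all lay near 0. Outer-arm heavy chains had a median log2 fold change of 0.07 (4 of 5 above 0), inner-arm heavy chains 0.02 (5 of 9), intermediate and light chains 0.13 (7 of 7), docking genes 0.08 (4 of 4) and preassembly factors 0.11 (9 of 10). The SE of a single gene ran from 0.09 to 0.47. The medians are descriptions without a test, and all of them moved when 1 library was left out. That of the outer-arm heavy chains was -0.11 without labelled knockout 4 and 0.32 without labelled knockout 2. That of the inner-arm heavy chains was -0.07 without labelled knockout 4 and 0.03 without wild type 1. Intermediate and light chains ranged from 0.05 (without labelled knockout 4) to 0.17 (without wild type 1). Docking genes ranged from 0.04 (without labelled knockout 1) to 0.17 (without labelled knockout 3), and preassembly factors from 0.05 (without labelled knockout 4) to 0.15 (without labelled knockout 2).

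Levels can be compared between genes only per transcript length, given here as TPM (counts per kilobase of the longest annotated transcript, scaled to the same total in every library). The members spread widely on that scale. Dnaaf1, a leucine-rich preassembly factor, was highest at 609 ± 76.5 TPM in labelled knockouts and 580 ± 23.1 TPM in wild types (SD, n = 4 each). Zmynd10, another preassembly factor, followed at 304 ± 42.2 TPM in labelled knockouts and 293 ± 16.7 TPM in wild types. The outer-arm heavy chain Dnah8 came after it at 288 ± 107 TPM in labelled knockouts and 235 ± 18.8 TPM in wild types. In wild types the range of each of these 3 genes lay wholly above that of the next in order. Ttc29 and the inner-arm light chain Dnali1 came next, at 198 ± 26.2 and 177 ± 5.59 TPM in labelled knockouts and 192 ± 6.72 and 179 ± 12.0 TPM in wild types, and these overlapped with each other.

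The middle of the order was crowded. From Dnah17 (74.0 ± 11.6 TPM in labelled knockouts, 76.4 ± 5.81 TPM in wild types) through Dnaic2, Ccdc151 and Dnaaf3, each gene overlapped with its neighbour in wild types, and so did the run from Wdr78 to Dnah7c. The 9 inner-arm heavy chains kept close company, from 18.4 ± 2.65 TPM for Dnah10 to 36.6 ± 4.97 TPM for Dnah1 in labelled knockouts and from 19.7 ± 1.14 TPM for Dnah10 to 37.8 ± 3.79 TPM for Dnah2 in wild types. At the bottom stood Dnah9, Dyx1c1, Dnah11 and Dnah5, all below 2 TPM in either group. Using coding length in place of transcript length put Dnali1 second and Dnah8 sixth, with Dnaaf1 still first.

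**Figure D2:**
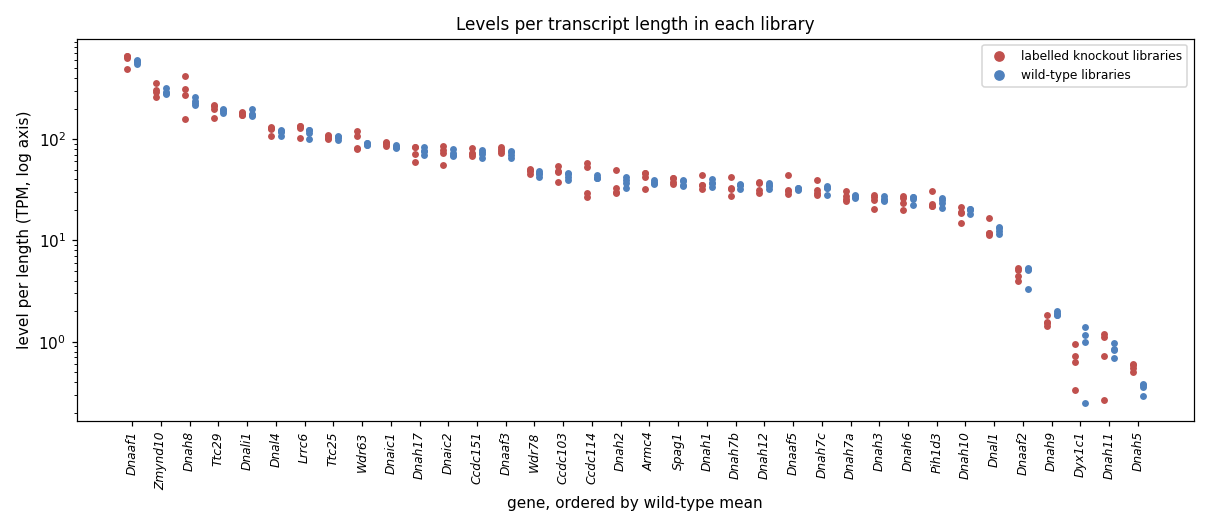
Level per transcript length (TPM, log axis) of the 36 genes, ordered by their wild-type mean, with a point for each labelled knockout library (left of each pair) and each wild-type library (right). Dnaaf1 lies highest, at means of 609 TPM in labelled knockouts and 580 TPM in wild types, and Dnah5 lowest, at 0.558 TPM in labelled knockouts and 0.349 TPM in wild types.

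Outer-arm heavy chains form a pair of related sets: in mouse and human, Dnah8 and Dnah17 serve the sperm tail, while Dnah5, Dnah9 and Dnah11 are best known from multiciliated cells. The 8 libraries followed that division in level. Dnah8 (ENSMUSG00000033826, chromosome 17) had 2512, 1994, 2481 and 1272 CPM in labelled knockouts 1 to 4, against 1893, 1632, 1607 and 1539.8 CPM in wild types 1 to 4. Labelled knockouts 1 to 3 lay above every wild type and labelled knockout 4 below every wild type, so the groups overlapped. The log2 fold change was 0.31 (SE 0.20, 95% interval -0.14 to 0.75, edgeR adjusted p = 1.00).

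Dnah17 (ENSMUSG00000033987, chromosome 11), the other heavy chain of the sperm outer arm, had 515, 389.8, 443 and 609 CPM in labelled knockouts and 551, 461, 483 and 450.4 CPM in wild types. Labelled knockouts 2 and 3 were below and labelled knockout 4 was above every wild type. The log2 fold change was 0.01 (SE 0.15, 95% interval -0.32 to 0.33, edgeR adjusted p = 1.00).

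The ratio of the 2 sperm heavy chains was steadier in wild types than in labelled knockouts. Per transcript length, Dnah8 over Dnah17 was 4.38, 4.59, 5.03 and 1.87 in labelled knockouts 1 to 4, against 3.08, 3.18, 2.99 and 3.07 in wild types 1 to 4. Labelled knockouts 1 to 3 stood above the wild-type range and labelled knockout 4 below it. The ratio was 3.97 ± 1.42 in labelled knockouts and 3.08 ± 0.0784 in wild types (SD, n = 4 each). It was computed after the values of both genes had been seen and was not tested. Of the summed TPM of the 14 heavy chains among the members, Dnah8 held 49.5%, 47.0%, 51.2% and 30.6% in labelled knockouts. In wild types it held 41.1%, 40.2%, 38.6% and 39.9%. Exons of 22 of the 36 members share bases with another annotated gene. The Dnah8 exons share 443 bases with an antisense gene and 207 with a noncoding RNA on the other strand, 1.65% and 0.772% of its exon bases, and the strand setting of the counting was not stated.

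Dnah5 (ENSMUSG00000022262, chromosome 15), a heavy chain of the ciliary outer arm, was low but separated the groups. It had 4.55, 4.05, 3.06 and 3.79 CPM in labelled knockouts, from 101, 84, 62 and 65 counts, against 1.98, 2.42, 2.35 and 2.50 CPM in wild types, from 37, 54, 58 and 50 counts. Every labelled knockout stood above every wild type, which held for 1 of the 36 members and for 0.981% of all genes tested (2.30% in either direction). The log2 fold change was 0.74 (SE 0.20, 95% interval 0.31 to 1.17, edgeR adjusted p = 0.947), so it did not pass. Over the 15 alternatives, all run on the same counts, it ran from 0.64 to 0.89. Their edgeR, DESeq2 or limma adjusted p-values ran from 0.0799 to 1.00. As every labelled knockout stood above every wild type, leaving libraries out could hardly change the sign. Without labelled knockouts 3 and 4, an alternative chosen after the data were seen, the log2 fold change was 0.89, with the lowest of those p-values. Markers of multiciliated cells were read beside Dnah5. Of the 10 listed, 6 passed the count filter, 5 with a log2 fold change above 0 and 1 (Ccno) below, with a median of 0.11. The summed level of all 10 ran from 293 to 512 CPM in labelled knockouts and from 393 to 441 CPM in wild types. Most of it came from Deup1, Foxj1 and Fam183b, with wild-type means of 268, 65.4 and 62.1 CPM, against 12.6 CPM for Tppp3, the next. In labelled knockout 3, where spermatid markers were low, these genes stood at -0.66, -0.46 and -1.17 (log2 CPM minus the wild-type mean). The other tested markers were also below 0 there. Whether the sum stands for multiciliated cells was not tested. The defining genes Sntn and Mcidas had at most 2 and 3 counts in a labelled knockout and 3 and 9 in a wild type. Deup1 and Foxj1 had up to 7278 and 2478 counts in a labelled knockout and 6822 and 1656 in a wild type. Ccno, a cyclin-like gene of multiciliated cells, was the listed marker whose groups did not overlap, and it lay the other way from Dnah5, at 3.27 to 4.24 CPM in labelled knockouts and 5.48 to 6.09 CPM in wild types (estimated log2 change -0.59, SE 0.16, edgeR adjusted p = 0.948). Dnah5 was lower in labelled knockout 3, which had the most Crisp1, than in the other labelled knockouts. The part of these markers in the Dnah5 values was not tested.

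Dnah9 (ENSMUSG00000056752, chromosome 11) and Dnah11 (ENSMUSG00000018581, chromosome 12) did not separate the groups. Dnah9 had 10.3, 11.1, 7.01 and 10.3 CPM in labelled knockouts and 11.2, 10.7, 11.7 and 10.9 CPM in wild types. Labelled knockouts 1, 3 and 4 were below every wild type and labelled knockout 2 was not. The log2 fold change was -0.20 (SE 0.16, edgeR adjusted p = 1.00). Dnah11 had 8.16, 1.64, 3.60 and 7.64 CPM in labelled knockouts, from 181, 34, 73 and 131 counts, against 4.28, 4.85, 5.82 and 4.999 CPM in wild types. Labelled knockouts 1 and 4 were above and 2 and 3 below every wild type, and the SD of its log2 CPM was 1.06 in labelled knockouts and 0.18 in wild types. Its log2 fold change was 0.07 (SE 0.40, 95% interval -0.80 to 0.95), an interval too wide to tell small changes. Dnah11 shares 4.44% of its exon bases with Cdca7l on the other strand.

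**Figure D3:**
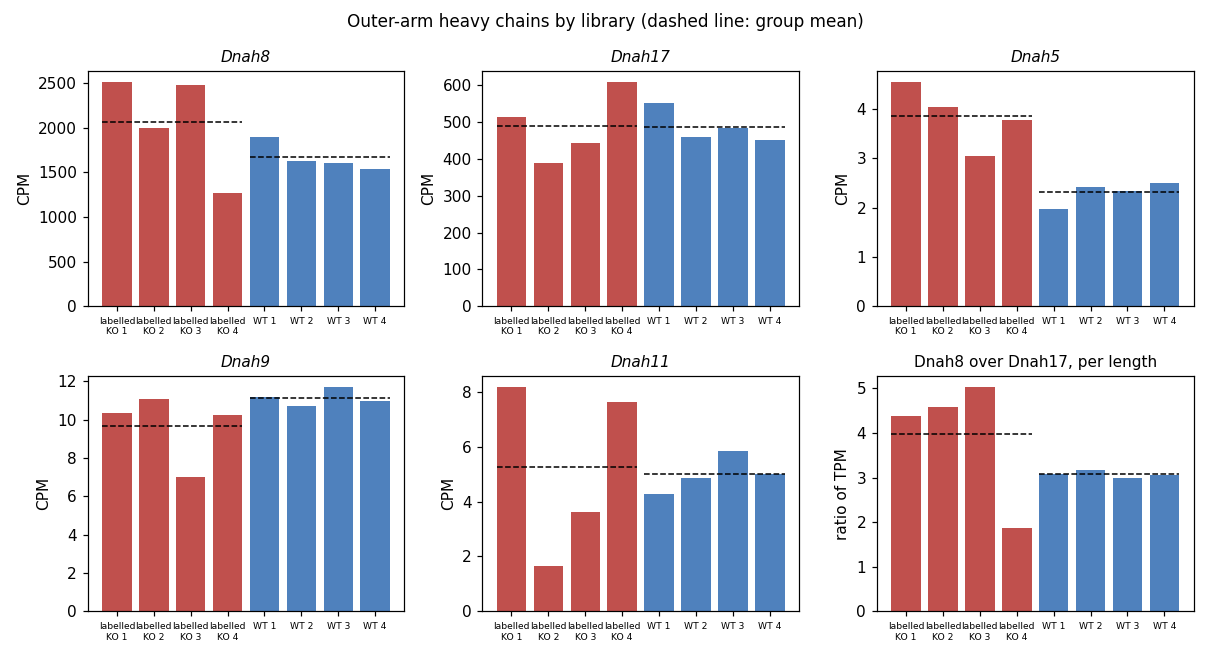
CPM (bars) of the 5 outer-arm heavy chains in labelled knockouts 1 to 4 and wild types 1 to 4, with dashed lines at group means, and in the last panel the ratio of Dnah8 to Dnah17 per transcript length. Every Dnah5 bar of a labelled knockout exceeds every wild-type bar, and the ratio panel shows labelled knockout 4 at 1.87, below the wild-type values of 2.99 to 3.18.

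Inner-arm heavy chains, which shape the bend of the tail, stayed close to wild type. Their log2 fold changes ran from -0.07 to 0.05 (SE 0.09 to 0.17). Dnah7a had the smallest p of the class, and Dnah2 the next and the highest level per length in wild types. Dnah2 (ENSMUSG00000005237, chromosome 11) had 199.6, 179, 241 and 222 CPM in labelled knockouts and 251, 205, 229 and 195 CPM in wild types (estimated log2 change -0.07, SE 0.13, edgeR adjusted p = 1.00), with overlapping groups. Dnah12 (ENSMUSG00000021879, chromosome 14) had 169, 167, 163 and 214 CPM in labelled knockouts and 179, 181, 177 and 165 CPM in wild types (estimated log2 change 0.02, SE 0.11). Labelled knockout 4 stood apart there, above every other library. Dnah3, chosen for mention after its values were seen, had 149.6, 145, 89.1 and 167 CPM in labelled knockouts and 136, 123, 143 and 135 CPM in wild types, and was the inner-arm heavy chain farthest below wild type in labelled knockout 3. Dnah3 shares 10.5% of its exon bases with Lyrm1 on the other strand.

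The mouse genome carries Dnah7a, Dnah7b and Dnah7c in place of a single human DNAH7. All are on chromosome 1. Their longest open reading frames in GENCODE M21 are 96.8% to 97.3% identical, with 329 to 381 differing bases in 12075 aligned. Stretches of 100 bases found in no other copy made up 80.3% of Dnah7a, 76.3% of Dnah7b and 75.4% of Dnah7c, so a read of that length would carry a base of its own copy at most positions but not at all. The stretch of 60 bases that best tells the copies apart is shown, because such differences are what lets reads be split between them. Capitals mark the 16 positions at which the copies are not all alike, and positions count from 1 at the start codon of that frame, which begins farther upstream in Dnah7b (1226 to 1285 in Dnah7a and Dnah7c, 1358 to 1417 in Dnah7b).
Dnah7a: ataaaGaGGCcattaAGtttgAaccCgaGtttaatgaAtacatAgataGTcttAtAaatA
Dnah7b: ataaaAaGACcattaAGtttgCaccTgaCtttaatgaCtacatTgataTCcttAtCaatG
Dnah7c: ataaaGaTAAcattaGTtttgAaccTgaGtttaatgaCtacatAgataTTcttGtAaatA

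All 3 copies were read at similar levels. Dnah7a (ENSMUSG00000096141) had 151, 149, 135 and 147 CPM in labelled knockouts and 145, 137, 144 and 137 CPM in wild types. Dnah7b (ENSMUSG00000041144) had 163, 174, 184 and 199.5 CPM in labelled knockouts and 189.6, 182, 184 and 168 CPM in wild types. Dnah7c (ENSMUSG00000101337) had 167, 159, 170.5 and 187 CPM in labelled knockouts and 177, 170.2, 171 and 149 CPM in wild types. The groups overlapped for each copy, and the log2 fold change was 0.05 for Dnah7a (SE 0.09), -0.01 for Dnah7b (SE 0.10) and 0.03 for Dnah7c (SE 0.10). With the copies added into 1 gene, the log2 fold change was 0.01 (SE 0.10, edgeR adjusted p = 1.00), from 476, 484, 496 and 522 CPM in labelled knockouts and 513, 495, 499 and 454 CPM in wild types. The treatment of reads with several matches was not stated, so the split between copies is uncertain.

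Intermediate and light chains form the base of the arm and regulate the heavy chains. All 7 were above 0 in log2 fold change, from 0.04 to 0.16 (SE 0.10 to 0.17), and 0 passed. Wdr63 and Wdr78, intermediate chains of inner arms, had the smallest p-values. Wdr63 (ENSMUSG00000043020, chromosome 3) had 125, 149, 136 and 122 CPM in labelled knockouts and 126, 112, 121 and 118 CPM in wild types (estimated log2 change 0.15, SE 0.10, edgeR adjusted p = 1.00). Its labelled knockouts 2 and 3 were above every wild type. Wdr78 (ENSMUSG00000035126, chromosome 4) had 124, 105, 90.05 and 128 CPM in labelled knockouts and 105, 95.2, 107 and 93.8 CPM in wild types (estimated log2 change 0.16, SE 0.12). There labelled knockouts 1 and 4 were above every wild type, and labelled knockout 3 was the lowest of the 8.

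Dnali1 (ENSMUSG00000042707, chromosome 4), the inner-arm light chain with the highest level per length of its class, had 189, 163, 131 and 187 CPM in labelled knockouts and 183, 155, 157 and 154 CPM in wild types (estimated log2 change 0.04, SE 0.13). Wild type 1 stood apart from the other wild types. The outer-arm intermediate chains Dnaic1 and Dnaic2 had log2 fold changes of 0.15 and 0.08, and the light chains Dnal4 and Dnal1 had 0.13 and 0.05 (SE 0.10 to 0.17).

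Docking genes encode the coiled-coil and repeat proteins that hold the outer arm on its doublet. Their log2 fold changes were 0.04 to 0.23, with 0 past the threshold. Armc4 (ENSMUSG00000061802, chromosome 18), an armadillo-repeat docking protein, had 71.2, 72.1, 40.0 and 79.4 CPM in labelled knockouts and 55.7, 54.5, 58.7 and 55.7 CPM in wild types. Labelled knockouts 1, 2 and 4 were above and labelled knockout 3 below every wild type. Its log2 fold change was 0.23 (SE 0.18, edgeR adjusted p = 1.00), with 0.12 without labelled knockout 4 and 0.39 without labelled knockout 3 (adjusted p = 0.0667). Without labelled knockout 3, 9 of the 36 members and 19.0% of all genes had an unadjusted p under 0.05. Ccdc151 (ENSMUSG00000039632, chromosome 9), a coiled-coil docking factor, had 75.5, 66.4, 56.6 and 87.8 CPM in labelled knockouts and 71.2, 63.8, 71.8 and 61.3 CPM in wild types (estimated log2 change 0.09, SE 0.13). Ttc25 (ENSMUSG00000006784, chromosome 11), a tetratricopeptide docking protein, had 223, 190.4, 158 and 232 CPM in labelled knockouts and 203, 185, 193 and 182 CPM in wild types (estimated log2 change 0.07, SE 0.13). Labelled knockout 3 was the lowest library and labelled knockout 4 the highest in both.

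Ccdc114, another coiled-coil docking protein, did not share that order. It had 81.5, 34.7, 55.6 and 42.2 CPM in labelled knockouts and 56.4, 49.0, 51.4 and 51.7 CPM in wild types, and was chosen for mention after its values were seen. Labelled knockout 1 was above and labelled knockouts 2 and 4 below every wild type. Its log2 fold change was 0.04 (SE 0.22), and the SD of its log2 CPM was 0.53 in labelled knockouts and 0.08 in wild types.

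Preassembly factors had log2 fold changes from 0.05 to 0.20 in 9 of 10 genes, and 0 passed. Dnaaf1 (ENSMUSG00000031831, chromosome 8) had 894, 619, 637 and 900.2 CPM in labelled knockouts and 744, 636, 683 and 722 CPM in wild types (estimated log2 change 0.13, SE 0.15, edgeR adjusted p = 1.00). Its exons share 20.7% of their bases with Taf1c on the other strand. Dnaaf3 (ENSMUSG00000055809, chromosome 7) had 82.7, 71.6, 63.6 and 90.5 CPM in labelled knockouts and 68.2, 59.2, 69.7 and 72.5 CPM in wild types (estimated log2 change 0.19, SE 0.12). Spag1 (ENSMUSG00000037617, chromosome 15), a tetratricopeptide assembly factor, had 87.3, 76.1, 71.9 and 97.1 CPM in labelled knockouts and 74.7, 76.4, 80.9 and 70.8 CPM in wild types (estimated log2 change 0.13, SE 0.11). Labelled knockouts 1 and 4 were above every wild type in all 3 of these genes, and the groups overlapped.

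None of the remaining preassembly genes passed. Log2 fold changes were 0.19 for Lrrc6, 0.20 for Ccdc103, 0.10 for Zmynd10, 0.09 for Dnaaf5, 0.07 for Pih1d3 and 0.05 for Dnaaf2 (SE 0.10 to 0.19). Dnaaf2 shares 22.3% of its exon bases with Gm49383 and 20.6% with Gm49384 on the same strand. A noncoding RNA on the other strand shares 32.7%. Dyx1c1 was read from 7, 17, 9 and 12 counts in labelled knockouts and 4, 21, 29 and 17 counts in wild types (estimated log2 change -0.51, SE 0.47, 95% interval -1.54 to 0.52). No difference in Dyx1c1 was called, and the interval is too wide to tell small changes. Its exons share 59.2% of their bases with Gm44503 on the same strand, and how reads in the shared part were assigned was not stated.

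Ttc29 (ENSMUSG00000037101, chromosome 8), a tetratricopeptide protein of the sperm axoneme needed for tail movement, had 253, 235, 140.3 and 238 CPM in labelled knockouts and 196, 196, 205 and 201 CPM in wild types. Labelled knockouts 1, 2 and 4 were above every wild type and labelled knockout 3 was far below. The log2 fold change was 0.12 (SE 0.16, edgeR adjusted p = 1.00), with 0.03 without labelled knockout 1 and 0.27 without labelled knockout 3 (edgeR adjusted p = 0.0977).

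Library-to-library variation was wider under the knockout label. The SD of log2 CPM was larger among labelled knockouts than among wild types for 31 of the 36 members, 86.1%, against 84.9% of all genes tested, with a median SD of 0.24 in labelled knockouts and 0.11 in wild types. Labelled knockout 4 was above every wild type for 28 members (77.8%, against 7414 of the 21805 genes tested) and labelled knockout 1 for 22 (61.1%, against 32.5%). Labelled knockout 3 was below every wild type for 17 members (47.2%, against 36.1% of all genes) and labelled knockout 2 for 10 (27.8%, against 26.4%). Labelled knockout 4 was the highest of the 8 libraries for 20 members (55.6%, against 21.4% of all genes tested). Labelled knockout 3 was the lowest for 13 (36.1%, against 29.1%) and labelled knockout 2 for 10 (27.8%, against 11.2%).

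**Figure D4:**
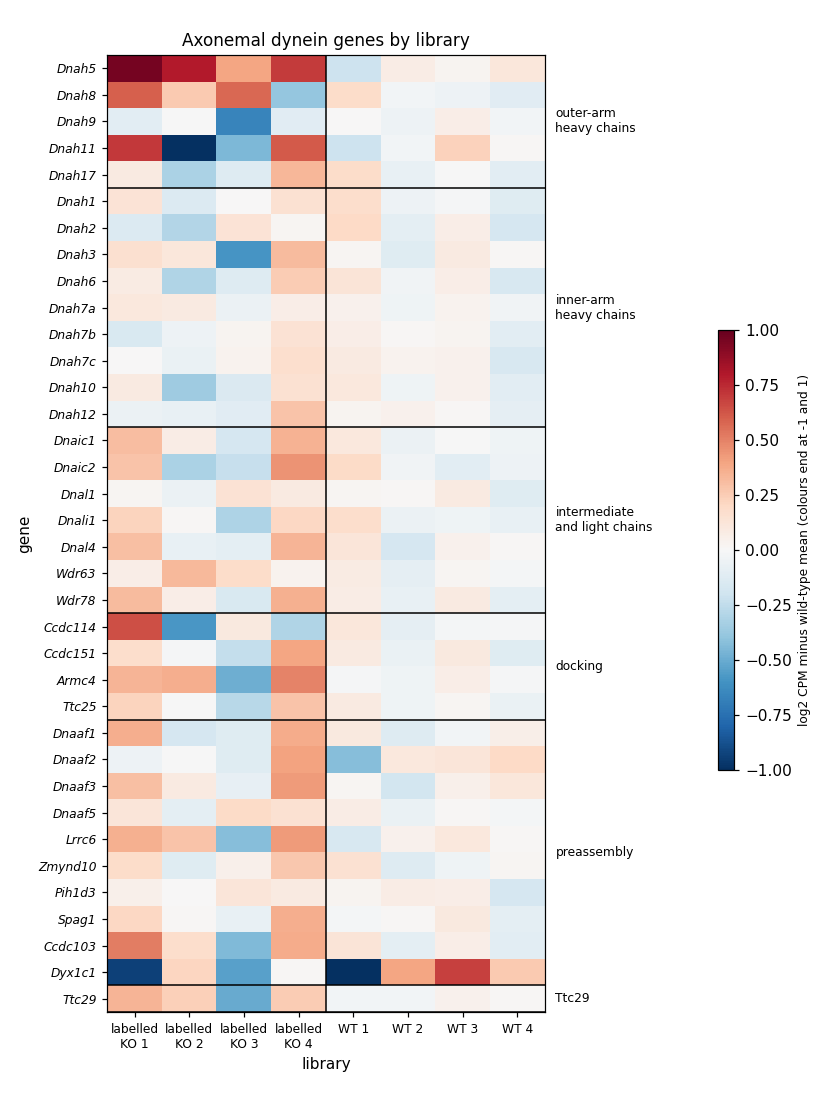
Log2 CPM minus the wild-type mean (colour, ending at -1 and 1) of the 36 genes (rows, grouped by role) in labelled knockouts 1 to 4 and wild types 1 to 4 (columns). Dnah11 in labelled knockout 2 (-1.54) and Dyx1c1 in wild type 1 (-1.35) lie beyond the scale, labelled knockouts 1 and 4 are mostly red, and labelled knockout 3 is mixed.

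Heavy chains, docking genes and preassembly factors can be set side by side by their list scores. In labelled knockouts 1 to 4 the score was 0.45, -0.16, -0.05 and 0.23 for outer-arm heavy chains and 0.03, -0.12, -0.09 and 0.17 for inner-arm heavy chains. It was 0.22, 0.00, -0.09 and 0.26 for intermediate and light chains, 0.35, -0.06, -0.23 and 0.22 for docking genes, and 0.11, 0.04, -0.14 and 0.29 for preassembly factors. Wild-type scores lay between -0.14 and 0.11 in all 5 classes. Each score is an unweighted mean, so low-count genes weigh as much as others. In labelled knockout 1 the outer-arm genes stood at 0.95 (Dnah5), 0.71 (Dnah11), 0.60 (Dnah8), 0.09 (Dnah17) and -0.11 (Dnah9). Dnah11, from 34 counts, was the lowest of them in labelled knockout 2 (-1.54). Among preassembly factors, Dyx1c1 was lowest in labelled knockout 1 (-0.94, 7 counts) and in wild type 1 (-1.35, 4 counts). Scores without these low-count genes were not computed. Labelled knockout 4 was positive in every class, labelled knockout 3 negative in every class, and the docking score was the lowest of the 5 in labelled knockout 3.

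Spermatid scores were lowest in labelled knockout 3, and farther from 0 there than those of the dynein classes. Across labelled knockouts 1 to 4, the round list scored 0.38, 0.29, -0.76 and 0.26, and the elongating list 0.39, 0.08, -0.81 and 0.48. The summed level of the 10 elongating spermatid genes was 9695 to 18982 CPM in labelled knockouts and 14148 to 17101 CPM in wild types, and that of the 9 round spermatid genes 639 to 1120.4 CPM in labelled knockouts and 875 to 1003 CPM in wild types. In labelled knockout 3 the lowest members, as log2 CPM minus the wild-type mean, were Dnah9 (-0.66), Dnah3 (-0.59), Dyx1c1 (-0.55), Ttc29 (-0.51) and Armc4 (-0.49), while Dnah8 (0.58) and Dnah5 (0.40) were above wild type there. The part of the spermatid share in the members' values was not tested. Cytoplasmic dynein genes (Dync1 and Dync2 genes with Wdr34 and Wdr60) had scores of 0.05, 0.00, 0.14 and -0.01 in labelled knockouts 1 to 4.

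**Figure D5:**
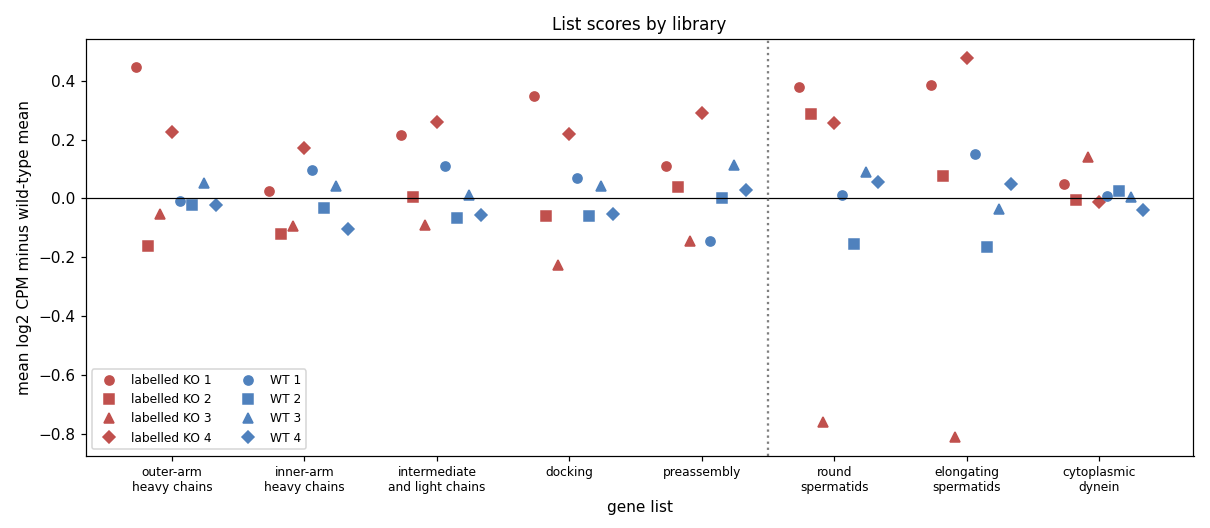
List score (mean log2 CPM minus the wild-type mean, y axis) of the 5 dynein classes and, right of the dotted line, of round spermatid, elongating spermatid and cytoplasmic dynein genes, with a marker for each labelled knockout library (left of each group) and each wild-type library (right). Labelled knockout 3 lies at -0.76 and -0.81 in the spermatid lists but between -0.23 and -0.05 in the dynein classes.

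Transcript length and base composition were compared after the values had been seen, since heavy chain messages are long. Over the 300 tested genes with a transcript of 10 kb or more and at least 10 CPM in wild types, the median of log2 CPM minus the wild-type mean was -0.16, -0.05, 0.11 and -0.05 in labelled knockouts 1 to 4, and between -0.05 and 0.04 in wild types. For the 12 heavy chains among them it was 0.08, -0.07, -0.09 and 0.15 in labelled knockouts 1 to 4. In wild types 1 to 4 these heavy chains stood at 0.10, -0.04, 0.04 and -0.11, so only labelled knockout 4 lay outside their wild-type range. Over the 4795 genes with a transcript under 3 kb it was 0.13, 0.03, -0.12 and 0.12 in labelled knockouts 1 to 4. For the 13 members of that kind it was 0.30, 0.01, -0.17 and 0.35, and 0.10, -0.07, 0.04 and -0.01 in wild types 1 to 4. From 3 to 10 kb it was -0.04, -0.02, 0.09 and 0.0007 over 5626 genes, and 0.21, 0.01, -0.07 and 0.28 for 7 members. In wild types 1 to 4 those members stood at 0.07, -0.04, 0.07 and -0.06. Over the 2095 genes with a GC content of 55% or more the median was 0.05, -0.10, 0.03 and 0.07 in labelled knockouts 1 to 4. For the 6 members of that kind it was 0.29, -0.11, -0.09 and 0.35, and 0.11, -0.13, -0.01 and 0.01 in wild types 1 to 4. At lower GC content, values are again those of labelled knockouts 1 to 4. Under 45% GC, all genes stood at 0.01, 0.08, -0.02 and 0.04, and 9 members at 0.05, 0.01, -0.06 and 0.16. From 45 to 50%, all genes stood at 0.03, 0.03, 0.01 and 0.04, and 7 members at 0.34, 0.24, -0.13 and 0.25. From 50 to 55%, all genes stood at 0.05, -0.05, 0.02 and 0.06, and 10 members at 0.16, -0.01, -0.20 and 0.25. The part of length or GC content in the members' values was not tested.

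Genes around this machinery showed no call either. Of 23 further genes, 22 were tested and 0 passed in either direction, with 19 above 0 and a median log2 fold change of 0.08. They were listed as assembly, docking and light chain genes but include the heavy chain genes Dnah14 and Dnhd1 and the tektin Tekt5. The smallest p was that of Cfap298, a factor of outer arm assembly, with 88.6, 73.9, 63.0 and 92.4 CPM in labelled knockouts and 73.2, 63.8, 69.2 and 76.6 CPM in wild types (estimated log2 change 0.17, SE 0.13, edgeR adjusted p = 1.00). Of 10 regulators, 8 were tested and 0 passed in either direction, with 7 above 0 and a median of 0.07. Mybl1, a transcription factor of meiotic male germ cells, had the smallest p, at 87.9, 92.9, 102 and 98.0 CPM in labelled knockouts and 84.1, 92.4, 83.5 and 77.2 CPM in wild types (estimated log2 change 0.18, SE 0.10, edgeR adjusted p = 1.00). Of 9 cytoplasmic dynein genes, all tested, 0 passed in either direction, with 7 above 0 and a median of 0.04. Dync1i2, an intermediate chain of cytoplasmic dynein, had 201, 212, 187 and 199 CPM in labelled knockouts and 179.9, 182, 185 and 177 CPM in wild types (estimated log2 change 0.14, SE 0.09, edgeR adjusted p = 1.00), with every labelled knockout above every wild type.

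Promoters were read for the X-box, the site of RFX transcription factors, which are known activators of ciliary genes and include RFX2 in round spermatids, and for the cAMP response element bound by CREM. RefSeq promoters (GRCm38.p6, 250 bases before to 50 after the start) were matched by symbol for 27 of the 36 members. The X-box was searched as GTTGCCNNGGCAAC with up to 2 mismatches, which reads the same on both strands. It was found for 3 of the 27 members (11.1%) and for 3.27% of 27025 genes with a promoter. The cAMP response element, TGACGTCA without mismatch and also the same on both strands, was found for 2 of the 27 (7.41%) and for 2.03% of all genes. The matches are shown with 8 bases on each side, because the counts above refer to them. Capitals mark the motif, and its first base is given relative to the start at position 0. They lie at -34 for Ccdc151 (chr9:22002647-22002676, minus strand), 0 for Zmynd10 (chr9:107547296-107547325, plus strand), -17 for Dnaaf2 (chr12:69198425-69198454, minus strand), -175 for Dnah6 (chr6:73221791-73221814, minus strand) and -164 for Wdr63 (chr3:146108185-146108208, minus strand). The build differs from that of the counts, GRCm39.
Ccdc151 X-box: cgcgggcgGTTTCCTTGGGAACgtgggcgg
Zmynd10 X-box: gctccctcGTTTCCATGGCGACgacgactc
Dnaaf2 X-box: tcccaggcGTTACTATGGCAACaaagcacg
Dnah6 cAMP response element: acaactaaTGACGTCAaatactct
Wdr63 cAMP response element: acgttaggTGACGTCAcaacacaa

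The genes with a match lay within the range of the other members. Log2 fold changes were 0.09 for Ccdc151, 0.10 for Zmynd10 and 0.05 for Dnaaf2 with the X-box, and -0.01 for Dnah6 and 0.15 for Wdr63 with the cAMP response element. Rfx2 itself had 369, 285, 296 and 446 CPM in labelled knockouts and 368, 314, 332 and 349 CPM in wild types (estimated log2 change 0.03, SE 0.15), and was named for the motif search.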

How the data were processed

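The deposited table holds raw read counts per Ensembl gene, whole numbers without normalization that the authors produced from testis RNA libraries. The tools named in the submitters' processing notes are Trimmomatic, STAR, featureCounts and DESeq2, and the build is GRCm39 (mm39). Versions and settings were not stated. Per the labels' protocols, RNA was extracted with TRIzol and libraries were made with a TruSeq kit. Symbols, lengths and overlaps came from GENCODE M21 (GRCm38).

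Low counts were removed with filterByExpr (minimum count 10, minimum total 15), leaving 21805 genes. Groups were compared with edgeR 4.0.16 (limma 3.58.1, R 4.3.3): TMM, quasi-likelihood test, Benjamini-Hochberg adjustment over all genes, threshold 0.05. CPM are TMM-scaled per total of tested genes, except those of marker sums and untested genes, which are per total count. Each SE was taken from the log2 fold change and its F statistic. DESeq2 1.42.0 and the other alternatives are given at the end. Closest replicates of a group differed by a chi-square per gene of 4.52 or more, so no library was counted as a copy of another.

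Values in each library are given for the 2 members with the smallest p and the highest level per length of each class, the outer-arm heavy chains, the Dnah7 copies and members with an outlying library; Dnah3, Ccdc114 and Dyx1c1 were added after their values were seen. The members and lists were chosen with earlier results of these data known. In simulated counts for labelled knockout against wild type, with 200 genes changed, 65.3% of 101 genes changed 2-fold and 95.9% of 97 changed 4-fold were recovered over 21451 genes. Both groups were simulated with the same dispersion per gene. In the data the median SD of log2 CPM over all genes was 0.33 in labelled knockouts and 0.14 in wild types. Changes smaller than 2-fold were not simulated, and the log2 fold changes of the members ran from -0.51 to 0.74.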

Additional observations from a re-analysis of the deposited data

Results flagged for a closer look

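Of 82 groups of 4 values examined (36 members and 5 class scores in each label), 3 held a library far from the other 3 of its group, where about 4.1 are expected by chance at this level. Ttc29 stood at 140.3 CPM in labelled knockout 3, against 235 to 253 CPM in labelled knockouts 1, 2 and 4. Dnah12 stood at 214 CPM in labelled knockout 4, against 163 to 169 CPM in labelled knockouts 1 to 3. Dnali1 stood at 183 CPM in wild type 1, against 154 to 157 CPM in wild types 2 to 4.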

How the results depend on the processing

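No member passed under any of the 15 alternatives run. Over all genes, the count higher and lower was 16 and 10 without a low-count filter, 23 and 23 with DESeq2, 9 and 5 with limma-voom and sample weights, and 82 and 52 without labelled knockouts 3 and 4, an alternative chosen after the data were seen. Leaving out 1 library gave 3 to 23 higher and 0 to 24 lower. The number was 9 higher and 24 lower without labelled knockout 1, 23 and 12 without 3, and 14 and 19 without 4; the cause was not tested. With the replicate block the counts stayed at 4 and 0. The shared numbers name no shared animal in the labels, and the log2 deviations of same-numbered libraries correlated at -0.03 to 0.09. The median of outer-arm heavy chains ranged from -0.11 to 0.32 with 1 library left out, and was -0.01 with the replicate block.

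Log2 fold changes near 0 changed sign for 11 of the 23 members given by library. With 1 library left out they ranged from -0.0200 to 0.18 for Ccdc151, -0.24 to 0.19 for Ccdc114, -0.0725 to 0.18 for Dnah3, -0.24 to 0.36 for Dnah11, -0.0828 to 0.0448 for Dnah12, -0.11 to 0.0888 for Dnah17, -0.15 to 0.00386 for Dnah2, -0.0591 to 0.0340 for Dnah7b, -0.0176 to 0.0637 for Dnah7c, -0.0242 to 0.13 for Dnali1 and -0.00586 to 0.16 for Ttc25. With the replicate block Dnah11 was at -0.13, Ccdc114 at -0.0346 and Dnah17 at -0.00781. Dnah17 was at -0.00431 without a filter and -0.000852 at a mean of at least 1 CPM. Dnah11 was at -0.12 and Ccdc114 at -0.00282 with limma-voom and sample weights. Without labelled knockouts 3 and 4, Dnah11 was at -0.0206, Dnah17 at -0.10, Dnah7c at -0.0328 and Dnah12 at -0.0664. Dnah7b as a gene of its own was at -0.00682, against 0.01 for the sum of the copies. The cause of these changes was not tested.

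With coding length, median wild-type levels were 0.978 TPM for outer-arm heavy chains, 16.3 for inner-arm heavy chains, 55.9 for intermediate and light chains, 36.9 for docking genes and 39.2 for preassembly factors, against 1.90, 32.2, 84.3, 56.8 and 40.02 TPM with transcript length, so the order of docking genes and preassembly factors turned. Dnah8 over Dnah17 in wild types was 3.25 with coding length. Dyx1c1 was read from 4 to 29 counts per library, Dnah5 from 37 to 101 and Dnah11 from 34 to 181. For Dnah11 the SD of log2 CPM was 1.06 in labelled knockouts and 0.18 in wild types. The part of depth in these values was not tested.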
